A study of Caenorhabditis elegans with 2 samples.

Results

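The CCR4-NOT complex shortens the poly(A) tails of messenger RNAs, and 7 of its genes in the nematode Caenorhabditis elegans are described here by the binding of the homeodomain protein CEH-27 to their DNA. The genes are let-711, ntl-2, ntl-3, ntl-4, ntl-9, ccf-1 and ccr-4, chosen by symbol in the Ensembl annotation of assembly WBcel235, out of 19973 nuclear protein-coding genes. All 7 symbols were found. The set was chosen with the signals of these same regions known, because the peak upstream of ntl-2 was among the strongest of the experiment. Signals and ranks are therefore a description, and no test was made on them.

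Loss of the poly(A) tail is usually the first and slowest step in the decay of a message, and it also silences translation. In CCR4-NOT the large NOT1 protein holds the other subunits together, the NOT2 and NOT3 proteins form a module at one end of it, and the nucleases CAF1 and CCR4 remove the adenines. Proteins bound to a message, such as PUF and Nanos proteins or the partners of Argonautes, bring the complex to it. In the worm, let-711 encodes NOT1 and is needed for fertility and for the positioning of the spindle in the early embryo. The genes ntl-2 and ntl-3 encode NOT2 and NOT3, ccf-1 and ccr-4 encode CAF1 and CCR4, ntl-9 encodes the CNOT9 subunit, and ntl-4 encodes the homologue of NOT4, a ubiquitin ligase in yeast and humans.

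Binding was measured by ChIP-seq, which sequences the chromatin fragments that an antibody pulls down after crosslinking. There was 1 group, of whole young adult worms at 73 hours of strain OP139, started from L1 larvae starved after bleaching, with males and females pooled. The strain carries the transgene wgIs139, in which ceh-27 is joined to TY1, EGFP and 3xFLAG tags, with an unc-119(+) marker in an unc-119(ed3) background, so that the protein measured was a tagged copy from a transgene. The immunoprecipitation used an anti-GFP antibody per the labels' description, whereas the antibody field names ceh-27. The labels number the 2 biological replicates 1 and 4, and there was no second condition. Whole animals were used, so the tissue in which a region was bound is unknown.

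The authors deposited a list of 30000 regions for each replicate, a list of 30000 regions from both replicates pooled, and a reproducible set of 2328 peaks that passed an irreproducible discovery rate threshold. Each region has a summit and a signal value whose scale is not given, so a signal is read only within its own list, by rank, with rank 1 the strongest. The reproducible set was the 2328 strongest pooled regions, with signals from 91.7 upwards. Regions ranked below that are background to an unknown extent. No list gives read counts, and the sequencing depth is therefore unknown.

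The sequence under the reproducible peak at ntl-2 is shown first, since it is the peak on which the set turns. The 300 bases run from II:4376762-4377061 (build ce11) on the minus strand, which is the strand of ntl-2, with the pooled summit at base 151. Capitals mark GAGAGA on either strand, and AAGTG, the core of sites bound by homeodomains of the NK-2 class, would also be in capitals but does not occur.
ntl-2: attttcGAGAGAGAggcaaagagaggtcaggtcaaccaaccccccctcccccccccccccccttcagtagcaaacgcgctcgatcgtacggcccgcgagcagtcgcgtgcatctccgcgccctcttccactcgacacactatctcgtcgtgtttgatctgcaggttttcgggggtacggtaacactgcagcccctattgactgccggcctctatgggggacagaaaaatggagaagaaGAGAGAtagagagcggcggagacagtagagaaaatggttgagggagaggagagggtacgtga

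Of the 7 genes, ntl-2 alone had a reproducible summit in its promoter, taken as the 1000 bp before and the 200 bp after an annotated 5' end. Over all protein-coding genes the share with such a summit was 8.47%. The count was also 1 of 7 over the whole listing window, from 2000 bp upstream of any 5' end to the 3' end of the gene, where 12.6% of protein-coding genes had a reproducible summit. Both counts rest on values known when the genes were chosen. The other 6 genes had regions in the longer lists, all below the threshold of the reproducible set in the pooled list. The deposited −log10 q of the strongest pooled region was 3.46 at ntl-2. Among the other 6 genes it ran from 2.87 at ccr-4 to 0.25 at ntl-9. A weaker ccr-4 region described below, of rank 25139, had 0.24.

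The peak at ntl-2 (WBGene00003825; gene at II:4372739-4376465, minus strand) lay at II:4376704-4377088. Its signal was 692 in the pooled list (rank 9), 214 in replicate 1 (rank 14) and 483 in replicate 4 (rank 6). It was among the 20 strongest regions in each of the 3 lists. The summit of replicate 4 was at the pooled summit, 4376911, and that of replicate 1 was 12 bp from it. Only 8 peaks of the reproducible set were stronger (0.344%), and on chromosome II the peak ranked 2 of 352. A promoter region at least as strong was found at 12 of the 19973 protein-coding genes in the pooled list, a count that includes ntl-2, and genes that share a peak are each counted.

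**Figure D1:**
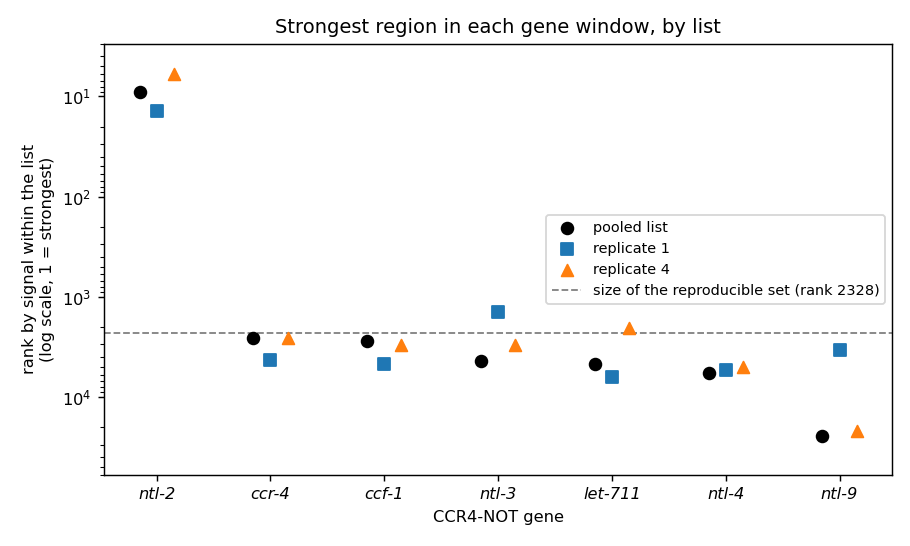
The rank by signal (log scale, 1 at the top) of the strongest region between 2000 bp upstream of any 5' end and the 3' end of each CCR4-NOT gene, in the pooled list (circles), replicate 1 (squares) and replicate 4 (triangles); the dashed line is rank 2328, the size of the reproducible set. The ntl-2 peak is at ranks 9, 14 and 6, while the pooled ranks of the other 6 genes run from 2579 to 24459.

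The summit at ntl-2 was in intergenic sequence. The gene has 10 annotated 5' ends, and the summit lay upstream of all of them, by 446 to 2221 bp. Of these ends 3 had the summit within 1000 bp, at 446, 447 and 453 bp, and they are the outermost ones. The next gene on that side, B0286.1, runs the other way with 2029 bp between the genes, and the summit was 1584 bp upstream of its 5' end. No other protein-coding gene had this summit within its promoter window, and no noncoding gene lay within 200 bp of it. The nearest reproducible peaks along the chromosome were 77.5 kb away on the side of lower coordinates, nearest to sco-1, and 76.7 kb away on the other side, nearest to twk-2.

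Within its own listing window the peak stood apart from the other regions. The pooled list had 4 regions there, and the next after the peak had a signal of 45.7 (rank 10370), lay in an intron and was 123 bp upstream of an internal 5' end. The ratio of the peak to the next region was 15.1 in the pooled list, 7.85 in replicate 1 and 11.2 in replicate 4. Each ratio is within a single list, and no region of the window other than the peak ranked better than 5313 in any list.

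The promoter peaks most like the ntl-2 peak, by the sum of the absolute log2 ratios of their ranks in both replicates, were compared over the 1245 other promoter peaks matched within 100 bp in both replicate lists. The closest was the peak of F59C6.18 (ranks 17 and 9 in replicates 1 and 4; distance 0.87). It was followed by a peak shared by iff-2, which encodes an eIF5A-type translation factor, and F54C9.14 (ranks 21 and 4; distance 1.17).

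How far the base composition at ntl-2 lay from that of other summits depended on the window. In the 301 bp centred on the summit 57.8% of bases were G or C, against a median of 43.5% at all reproducible summits (quartiles 38.5% to 48.2%), and 1.76% of summits had more. In the 101 bp around the summit the value was 56.4%, against a median of 49.5%, and 15.1% of summits had more. The sequence printed above has 3 copies of GAGAGA, all on the strand shown. Of these, 2 overlap near its start and 1 follows the summit at 88 bp. GAGAGA occurred on either strand in the 301 bp windows of 1165 of the 2328 reproducible summits and in 21.6% of equal windows ending at the outermost 5' end of a protein-coding gene. Within 50 bp of the ntl-2 summit it did not occur, whereas it did at 628 of the 2328 summits and in 8.80% of promoter windows of that length. A run of 15 C, at bases 48 to 62 of the printed strand, lay 89 bp from the summit. Runs of at least 10 bases, all G or all C, were searched only after this sequence had been read. Of 301 bp windows, 2.53% at reproducible summits and 1.01% at promoters held one.

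AAGTG was not found within 150 bp of the ntl-2 summit on either strand, whereas 55.8% of 301 bp windows at reproducible summits and 50.7% of promoter windows held it. The longer TNAAGTG, which contains AAGTG and was found in 15.8% of summit windows and 14.3% of promoter windows, was therefore also missing. TTTTTTTT, the T-block known from worm promoters, was missing too (18.9% of summit windows, 35.3% of promoter windows). A match or its lack describes the letters of these windows only.

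**Figure D2:**
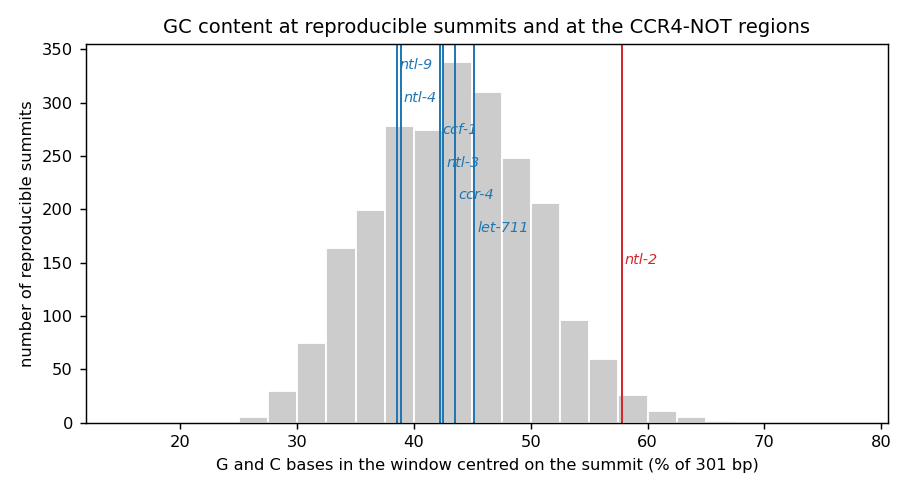
Histogram of the percentage of G and C bases in the 301 bp centred on each of the 2328 reproducible summits, with a vertical line for the strongest pooled region of each CCR4-NOT gene (red for ntl-2, the reproducible one, and blue for the other 6). The ntl-2 window, at 57.8%, is in the upper tail, while the other 6 lie between 38.5% and 45.2%; in 101 bp windows, not drawn, ccr-4 (58.4%) and let-711 (57.4%) were above ntl-2 (56.4%).

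The deadenylase gene ccr-4 (IV:12361542-12371852, plus strand) came nearest to the threshold. Its strongest pooled region, at IV:12361738-12362081, had a signal of 87.0 and rank 2579, against 91.7 for the weakest reproducible peak. The signal was 29.8 in replicate 1 (rank 4306) and 58.4 in replicate 4 (rank 2602), with summits 3 bp and 0 bp from the pooled one. Both replicates thus placed a region at the same base pairs, and neither ranked it within its strongest 2328. The summit lay in an intron, 368 bp downstream of the outermost 5' end of ccr-4 and 42 bp upstream of an internal one. It was also 2 bp upstream of ZC518.8, a short protein-coding gene on the opposite strand, so that the 2 genes share the region. A pooled promoter region at least as strong was found at 9.15% of protein-coding genes.

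A further pooled region of ccr-4, with signal 57.2 (rank 6086), was 198 bp upstream of another internal 5' end and within 200 bp of the noncoding RNA gene ZC518.6. The region there had rank 3470 in replicate 4, and replicate 1 listed none at that place. At the outermost 5' end itself the pooled list had only a region of signal 29.1 (rank 25139), 220 bp upstream and within the promoter window of sec-24.2, a gene of the COPII coat of secretory vesicles.

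The other nuclease gene, ccf-1 (III:11918828-11920237, minus strand), encodes the main deadenylase of the worm. Its strongest pooled region, at III:11919462-11919805 with signal 83.9 and rank 2753, lay in coding sequence 603 bp downstream of the single annotated 5' end. The matching regions ranked 4745 in replicate 1 (signal 28.8, 82 bp from the pooled summit) and 5724 in replicate 4 (signal 41.8, 15 bp). This summit was outside the promoter window of ccf-1 and inside that of znf-593, the next gene downstream, 915 bp upstream of its 5' end. Replicate 4 had a stronger region nearby, of signal 54.5 (rank 3019), 797 bp downstream of the 5' end. The pooled region next in strength, of signal 70.0 (rank 3929), lay 1748 bp upstream in coding sequence of Y56A3A.22, and the one there in replicate 4 ranked 3198. In its own promoter ccf-1 had 2 weaker pooled regions, of signal 41.1 (rank 13240) and 31.2 (rank 22455). The first was 719 bp upstream, in coding sequence, 221 bp downstream of the 5' end of the divergent gene trap-4 and within the promoter window of Y56A3A.22, and the other lay between the genes, 272 bp upstream of ccf-1 and 226 bp upstream of trap-4. Replicate 1 had a region of signal 28.4 (rank 4909) 79 bp upstream of ccf-1, and no region of replicate 4 lay closer than 730 bp upstream.

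The sequences around these summits just below the threshold are shown for comparison with the ntl-2 peak, together with the promoter region of ntl-4. Each runs 5' to 3' on the strand of its gene with the summit at base 51, from IV:12361860-12361951 for ccr-4, III:11919584-11919684 (minus strand) for ccf-1 and IV:7910448-7910548 for ntl-4, and capitals mark GAGAGA or AAGTG on either strand. The ccr-4 stretch was shortened to leave out annotated untranslated sequence only. The 5' end of ZC518.8, 2 bp from the summit, falls within it.
ccr-4: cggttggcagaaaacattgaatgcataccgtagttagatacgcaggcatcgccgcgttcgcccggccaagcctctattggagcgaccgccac
ccf-1: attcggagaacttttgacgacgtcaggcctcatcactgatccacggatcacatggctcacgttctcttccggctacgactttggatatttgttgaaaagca
ntl-4: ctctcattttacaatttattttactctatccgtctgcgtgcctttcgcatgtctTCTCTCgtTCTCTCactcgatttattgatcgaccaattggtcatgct

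None of these 3 stretches held AAGTG, and of them only the one at ntl-4 held GAGAGA, in 2 copies read on the opposite strand. Over the strongest pooled region of each of the 7 genes, AAGTG occurred within 50 bp of the summit at ntl-9 only, against 27.1% of reproducible summits and 21.2% of promoter windows of 101 bp. Within 150 bp it occurred at 5 of the 7, all but ntl-2 and let-711, against 55.8% of reproducible summits. Of the 7 regions only that of ntl-2 is in the reproducible set. These shares are therefore not for regions of like rank, for which no share is given here. GAGAGA occurred within 50 bp at ntl-3 and ntl-4, with 2 copies in each. The wider ntl-3 window also held a run of 15 bases that were all G or all C, as did that of ntl-2. In 301 bp the GC content of the 6 regions other than that of ntl-2 ran from 38.5% at ntl-9 to 45.2% at let-711. In 101 bp it ran from 40.6% at ntl-4 to 58.4% at ccr-4, and both ccr-4 and let-711 were above the 56.4% of ntl-2.

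The scaffold gene let-711 (III:6946718-6958894, plus strand) had 9 pooled regions, of which the strongest had a signal of 63.7 (rank 4751) at III:6951988-6952331. It lay in coding sequence, 85 bp downstream of an internal 5' end and 5442 bp downstream of the outermost one. The replicates differed here. Replicate 4 had a region of signal 64.9 and rank 2062, inside its strongest 2328. Its summit was 183 bp from that of the strongest pooled region and 268 bp downstream of the internal 5' end. A weaker pooled region, of signal 43.9 (rank 11350), lay 287 bp downstream of that end. Its summit was nearer to the replicate 4 summit than that of the strongest pooled region. The nearest region of replicate 1 was 1743 bp from the strongest pooled summit (signal 18.4, rank 16248). Upstream of the outermost 5' end, where let-711 faces the divergent gene abu-13 across 819 bp, the pooled region 208 bp upstream had a signal of 33.3 (rank 20095), and replicate 1 had a region of rank 6927 there (187 bp upstream). Replicate 4 listed none in that promoter window. A stronger pooled region, of signal 43.1 (rank 11878), lay 1219 bp upstream in coding sequence, where replicate 4 had a region of rank 3924.

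The NOT3 gene ntl-3 (III:11831012-11846465, minus strand) is the longest of the set, at 15454 bp, and had 10 pooled regions. The strongest had a signal of 66.0 (rank 4414) and lay in an intron, 9562 bp downstream of the outermost 5' end and 3206 bp upstream of the internal one. Its rank was 2339 in replicate 1 (54 bp from the pooled summit) and 8147 in replicate 4 (11 bp). The strongest region of replicate 1 was another intronic one, of signal 47.8 and rank 1424, 1305 bp upstream of the internal 5' end, while the strongest of replicate 4 had rank 3054 and lay 2405 bp upstream of it. At the outermost 5' end no list had a region in the promoter window. The nearest pooled region downstream lay 1266 bp away in coding sequence (signal 45.6, rank 10444). The nearest one upstream, at 1404 bp with signal 62.9 (rank 4881), was 283 bp upstream of the divergent gene mif-1, a homologue of the cytokine MIF.

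The gene ntl-4 (IV:7910575-7915189, plus strand) is divergent from npp-27, a nuclear pore gene by its name, with 327 bp between them. Its strongest pooled region, at IV:7910326-7910669, had a signal of 58.3 (rank 5804) and a summit in that interval, 77 bp upstream of ntl-4 and 251 bp upstream of npp-27. The replicates gave it similar ranks, 5417 in replicate 1 (signal 27.4) and 6368 in replicate 4 (signal 39.9), with summits 38 and 68 bp from the pooled one. The region is thus placed between both genes in each replicate and is far below the threshold in each. It was not the strongest of the ntl-4 window in replicate 4. There a region of signal 44.1 (rank 4994) lay in an intron, 1034 bp upstream of ntl-4 and 67 bp upstream of a 5' end of npp-27.

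The CNOT9 gene ntl-9 (III:4944513-4947317, plus strand) had the weakest region of the set in the pooled list and in replicate 4, but not in replicate 1, where only ntl-2 and ntl-3 had a stronger one. Its only pooled region had a signal of 29.6 (rank 24459) and lay in coding sequence, 534 bp downstream of the 5' end. The nearest region of replicate 1 ranked 3376 (signal 32.7) but was 197 bp from that summit, and that of replicate 4 ranked 21961 (signal 22.5) at 222 bp. No pooled region lay in its promoter window. In replicate 4 a region of rank 27254 lay there, 34 bp downstream of the 5' end. The gene begins 108 bp after rpb-2, which encodes a large subunit of RNA polymerase II, on the same strand, whereas the nearest upstream gene of each of the other 6 is on the opposite strand. Of all protein-coding genes with an upstream gene, 45.4% have it on the opposite strand.

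**Figure D3:**
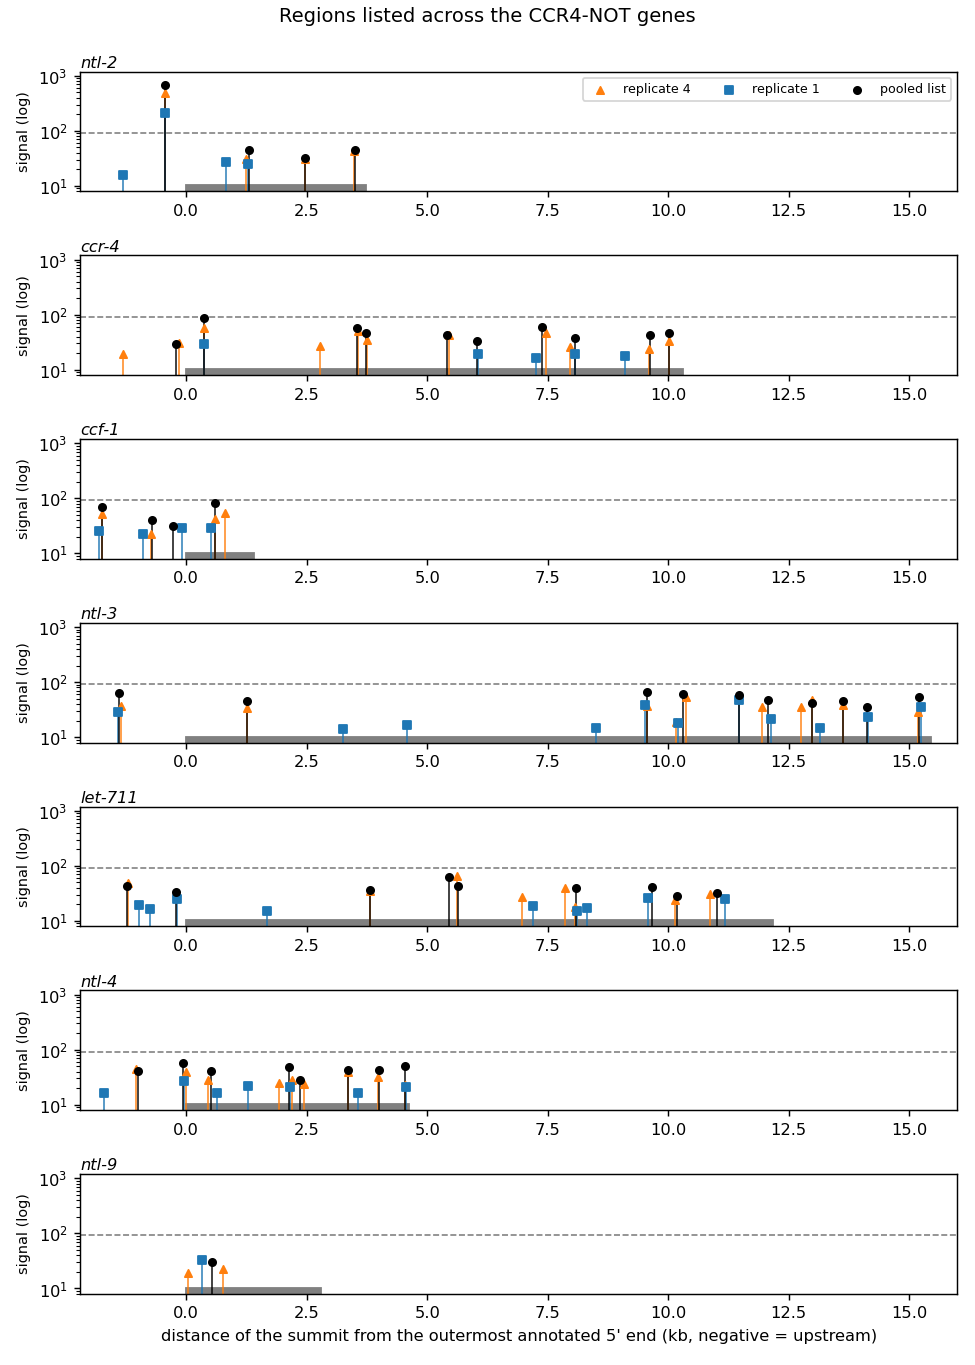
Every region listed for each CCR4-NOT gene, by distance of its summit from the outermost annotated 5' end (kb, negative upstream) and signal (log scale), in the pooled list (circles), replicate 1 (squares) and replicate 4 (triangles); grey bars are the genes and the dashed line is 91.7, the lowest pooled signal of the reproducible set, which applies to the circles only. A single pooled region, 446 bp upstream of ntl-2, is above the line.

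The replicates agreed in part. For 5 of the 7 genes the strongest pooled region had a summit within 100 bp in both replicate lists, and the exceptions were let-711 and ntl-9. The pooled list is made from these same replicates. The share of all genes matched in this way is not given here, so the count cannot be called high or low. When the regions themselves had to overlap by 50% of each, 4 genes were left, without ntl-2, whose region was 187 bp wide in replicate 1 and 385 bp wide in the pooled list. Among the 2328 strongest regions of replicate 1, listing-window summits were found at ntl-2 and ntl-3, where 12.8% of all protein-coding genes had one. Among those of replicate 4 they were found at ntl-2 and let-711, where the share of all genes was 12.3%. Only ntl-2 was in both, and the share of all genes in both is not given here.

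Weak regions were common in these genes. The 46 pooled regions in the listing windows lay in coding sequence (22), introns (12), intergenic sequence (6) and untranslated sequence (6). A pooled region of any rank lay in the promoter window of 6 of the 7 genes, against 39.2% of all protein-coding genes. The listing windows held 0.713 pooled regions per kb, beside 0.330 over the listing windows of all protein-coding genes and 0.299 over the genome. The median member is longer than the median gene, at 4615 bp against 2027 bp, and members have a median of 5 annotated 5' ends against 1. The regions per kb already allow for window length, whereas the promoter count does not allow for the number of 5' ends. The part of gene length and of the number of 5' ends in these counts was not tested.

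Genes of the steps before and after deadenylation were counted in the same way, from 8 lists chosen with earlier results of these data known. Of the 70 genes found in the annotation 18 had a reproducible promoter summit (25.7%), beside 8.47% of all protein-coding genes. A further gene of the complex by its name, ntl-11, had a peak of signal 223 (rank 408), 128 bp upstream of its 5' end, with ranks 412 and 462 in replicates 1 and 4. Of the 5 genes of other deadenylases 1 was bound, panl-3 of the PAN2-PAN3 nuclease (signal 133), and its nearest region ranked 1012 in replicate 4 but 29976 in replicate 1.

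Decapping and 5' to 3' decay, which follow deadenylation, had 5 of 11 genes with a promoter summit. The 3 strongest were ifet-1, a partner of the cap-binding protein (signal 570, rank 20), edc-4, an activator of decapping (247, rank 307), and cgh-1, a DEAD-box helicase of P bodies and germ granules (191, rank 586). The ifet-1 summit was 513 bp and the cgh-1 summit 746 bp upstream, beyond a window of 500 bp. The ifet-1 peak is shared with the ribosomal protein gene rps-1. Genes of poly(A) tail binding and synthesis had 3 of 10, namely pabp-2 (signal 175), pab-2 (142) and pab-1 (106), which bind poly(A). The pabp-2 peak was shared with C17E4.6 and the pab-1 peak with rpl-30. The pab-1 peak ranked 1483 in replicate 1 and 3355 in replicate 4.

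Among mRNA-binding proteins and Argonautes 4 of 14 had a promoter summit. The strongest were nhl-2 (signal 729, rank 5), a TRIM-NHL cofactor of microRNA silencing that shares its peak with tag-340, ain-1 (406, rank 65), the GW182 partner of microRNA Argonautes, and nos-3 (123, rank 1374), a Nanos protein gene whose peak is shared with Y53C12B.1. The nos-3 peak ranked 4393 in replicate 1 and 1125 in replicate 4. The nhl-2 summit was 851 bp and the ain-1 summit 994 bp upstream, so that with 500 bp upstream 2 of the 14 remained. With that window 6.64% of all protein-coding genes had a promoter summit. The list of LSM genes, which includes lsm-8, had 2 of 8 (lsm-3 and lsm-7, both with peaks shared with other genes). The RNA exosome and its helicases had 2 of 12 (exos-8 and exos-9). The exos-9 peak was 969 bp upstream and shared with pfd-5. The lsm-7 peak ranked 991 in replicate 1 and 6276 in replicate 4. Among the 2328 strongest regions of replicate 1 alone the LSM and exosome counts were each 4, and with replicate 4 alone the LSM count was 1. The shares of all protein-coding genes were 8.47% with replicate 1 alone and 8.08% with replicate 4 alone. None of 9 genes of nonsense-mediated decay had one. Several of the peaks counted are shared with genes outside the lists, and the lists are small. Whether the lists differ from the CCR4-NOT genes was not tested.

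**Figure D4:**
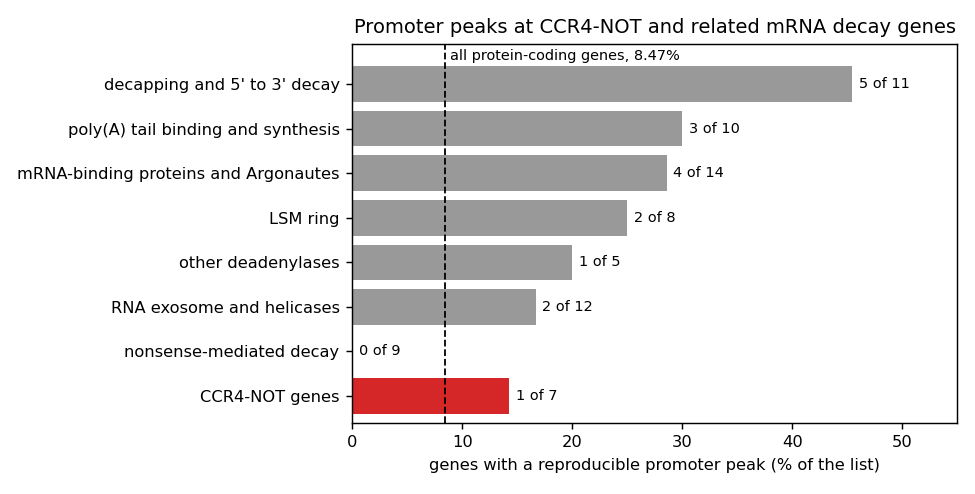
The percentage of genes with a reproducible promoter peak among the CCR4-NOT genes (red) and 7 lists of related genes (grey), with the count beside each bar; the dashed line is 8.47%, the share of all protein-coding genes. The list of other CCR4-NOT subunits holds only ntl-11 and is not drawn.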

How the data were processed

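The authors deposited narrowPeak lists of regions on build ce11 for each replicate, for both pooled, and for the reproducible set, per the descriptions beside the sample files. The sources used here do not give the aligner, the region caller or the threshold, and the control named in the labels was not analysed here. The signal per region is the authors' own value and serves here only for ranks and descriptions within a list. The deposited −log10 q values were not used for ranking.

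Genes came from Ensembl release 115 and sequence from the RefSeq copy of WBcel235, the assembly of ce11. All deposited coordinates fell within its chromosome lengths. Coordinates count from 1. The promoter of a protein-coding gene was the 1000 bp before and the 200 bp after each of its annotated 5' ends, and a gene had a promoter peak when a summit fell there. Many worm messages are trans-spliced, so a listed 5' end may lie downstream of the site of initiation. Summits within 100 bp counted as matched. Motifs were searched on both strands within 50 or 150 bp of the summit. The promoter assignment was checked on planted positions.

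The members and lists were chosen with earlier results of these data known, and no test was made. Named genes were the members, genes whose promoter or nearest 5' end bears on a member's region, noncoding genes within 200 bp of a member summit, at most the 3 strongest bound genes of each related list, and the 2 peaks most like that of ntl-2 in rank. Outside this rule, sco-1, twk-2 and rpb-2 are named for their position only, and some genes because they share the peak of a related gene. The list names ntl-10, exos-10 and pup-1 were not matched in the annotation. Alternatives changed the promoter window, the set, the replicate, the matching rule and the motif window. Python 3.11.15, numpy 2.4.6, pandas 2.3.3 and matplotlib 3.10.9 were used.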

Additional observations from a re-analysis of the deposited data

How the results depend on the processing

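The count of CCR4-NOT genes with a promoter summit was 1, at ntl-2, with windows of 500 or 2000 bp upstream, with the outermost 5' end only, among the 1164 strongest peaks and in either replicate alone. Over the listing window the count was 2 with replicate 1 alone and 2 with replicate 4 alone, against 1 in the reproducible set. With the 1164 strongest peaks the share of all protein-coding genes with a promoter summit was 4.91% and 9 related genes had one, against 18. With 500 and 2000 bp upstream 13 and 22 related genes had one: decapping genes counted 3 and 6, exosome genes 1 and 4, mRNA-binding proteins and Argonautes 2 and 4, and nonsense-mediated decay genes 0 and 1. The shares of all protein-coding genes with these windows were 6.64% at 500 bp and 11.2% at 2000 bp. Requiring summits within 50 bp in both replicates left 2 of the 5 matched member regions, ntl-2 and ccr-4, and the cause was not tested. With 50% reciprocal overlap 4 were left, without ntl-2. The shares of all genes under these matching rules are not given here. Doubling the rank limit in the pooled list to 4656, an alternative chosen after seeing the data, gave 4 genes in the listing window, with ccr-4, ccf-1 and ntl-3 added. A pooled listing-window region at least as strong as that of ntl-3 (rank 4414) was found at 20.25% of all protein-coding genes. For let-711 (rank 4751), just beyond the limit, the share was 21.37%. Over the strongest pooled region of each of the 7 genes AAGTG was found at 1 within 50 bp, at 0 within 25 bp and at 4 within 100 bp. Of reproducible summits 27.1% held it within 50 bp and 55.8% within 150 bp. Shares within 25 and 100 bp are not given here, so these counts are not read as high or low. The AAGTG count at the ntl-2 summit was 0 within 25 and 100 bp and at the summits of either replicate. With 2 replicates of 1 group and no read counts, the lists give ranks but no error on a signal.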
